A study of Mus musculus with 50 samples.

Results

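The 39 genes described here encode cyclins, cyclin-dependent kinases, the replicative helicase, enzymes that make deoxynucleotides, and proteins of the mitotic spindle, and all of them serve the cell division cycle. They were chosen by symbol, as a fixed list, out of 55401 gene rows in the table of the latest time point, and all 39 had a row in each of the 3 tables of the study. Gene counts came from 3′ mRNA sequencing (QuantSeq FWD), which reads the ends of polyadenylated transcripts, of 50 libraries from male mice. Every mouse carried hM3DGq, a designer receptor that lets clozapine N-oxide (CNO) excite the cells that express it, and every mouse received CNO at 1 mg/kg. Mice positive for Cre under Gfral, the gene of the GDF15 receptor of hindbrain neurons, form the TG group and their Cre-negative counterparts the WT group, so both had the drug and there was no group without it. The study asked how exciting these neurons altered gene expression in a tissue that took up less glucose and in one that took up more.

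There were 10 WT and 10 TG libraries of whole quadriceps from mice under a clamp, 9 and 9 of perigonadal white adipose tissue (pgWAT) taken 1 h after CNO, and 6 and 6 of pgWAT taken 6 h after CNO. Ages were not given. Gfral is not a gene of muscle or fat, so its level cannot check the genotype here. The labels number the replicates but do not say that they are separate mice, so p-values reflect only how far these samples spread, which may be technical.

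In dividing cells, D-type cyclins carry growth signals to the kinases CDK4 and CDK6, which release E2F factors to switch on the genes of S phase. Cyclin E with CDK2 then fires origins loaded with the MCM helicase, and cyclin A, cyclin B, CDK1, Polo-like and Aurora kinases drive the later steps through mitosis, when the repressor complex DREAM no longer holds their promoters silent. Mature muscle fibres and adipocytes do not divide, and dividing cells in fat are mostly immune, endothelial and progenitor cells, so in bulk tissue a lower level can mean fewer dividing cells or less RNA per cell, which cannot be told apart.

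Promoter windows, the 250 bases before a RefSeq start site on GRCm38.p6, were matched for 31 of the 39 genes (34 windows) and not for Ccnd1, Ccnd2, Ccne2, Mcm4, Gins2, Ccna2, Aurkb and Tpx2. The windows of Asf1b, Plk1, Top2a and Cdk1 are shown because, among the genes with a window, these had the smallest p-values in pgWAT at 1 h, where 22 of the 27 tested genes lay below 0. They were chosen after their values were seen. Each is written 5′ to 3′ on the strand of its gene, with capitals for the CHR letters TTTGAA, the DREAM element of late cell cycle promoters, and for CCAAT, the letters bound by NF-Y, on either strand (TTCAAA and ATTGG on the opposite one).
Asf1b, chr8:83955444-83955693, plus strand: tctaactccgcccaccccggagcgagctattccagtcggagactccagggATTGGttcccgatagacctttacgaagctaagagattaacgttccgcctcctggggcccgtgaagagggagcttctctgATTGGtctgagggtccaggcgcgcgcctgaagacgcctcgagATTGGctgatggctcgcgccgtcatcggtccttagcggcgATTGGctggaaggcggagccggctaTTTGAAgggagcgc
Plk1, chr7:122159185-122159434, plus strand: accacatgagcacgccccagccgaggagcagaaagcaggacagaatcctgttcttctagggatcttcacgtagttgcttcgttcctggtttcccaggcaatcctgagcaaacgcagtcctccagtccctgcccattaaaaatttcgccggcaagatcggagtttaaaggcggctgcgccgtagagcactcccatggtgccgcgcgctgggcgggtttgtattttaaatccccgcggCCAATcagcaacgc
Top2a, chr11:99024190-99024439, minus strand: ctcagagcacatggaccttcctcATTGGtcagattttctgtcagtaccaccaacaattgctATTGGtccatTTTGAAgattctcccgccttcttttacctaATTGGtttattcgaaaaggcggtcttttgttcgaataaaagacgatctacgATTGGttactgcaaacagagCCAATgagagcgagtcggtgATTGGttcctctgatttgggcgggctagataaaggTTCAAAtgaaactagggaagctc
Cdk1, chr10:69352913-69353162, minus strand: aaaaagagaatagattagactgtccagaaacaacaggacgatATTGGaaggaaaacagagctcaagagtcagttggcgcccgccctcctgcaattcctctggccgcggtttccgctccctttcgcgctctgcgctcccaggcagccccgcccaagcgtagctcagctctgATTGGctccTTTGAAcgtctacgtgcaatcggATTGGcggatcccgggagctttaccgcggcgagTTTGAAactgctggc

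CCAAT was present in 26 of the 34 windows of these genes (76.5%) and in 33.8% of all 32851 windows of that length. CHR was in 9 windows (26.5%) against 16.0% of all windows. The E2F letters TTTCCCGC or TTTGGCGC, searched on both strands, were in 5 windows (14.7%) against 1.30% of all windows. Asf1b, Top2a and Cdk1 each had both CHR and CCAAT, and Plk1 had a single CCAAT and no CHR in the window. No printed match overlapped another. A match gives the letters only and is not a measured site.

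How many of the genes could be measured depended on the set. Levels are CPM, gene counts scaled by TMM to a common library total. The quadriceps libraries held 959980 to 2613672 gene counts, the 1 h libraries 976610 to 4852560 and the 6 h libraries 9150496 to 12883462. A count of 0 allows up to 3 counts, which came to 1.15 to 3.13, 0.618 to 3.07 and 0.233 to 0.328 CPM per library in these sets, for counting error only. Each of the 39 genes had at least 1 count in every set, but 14 had a count in every quadriceps library, 35 in every 1 h library and 38 in every 6 h library. The median gene of the list had 29 counts over the quadriceps libraries, 358 over the 1 h libraries and 649 over the 6 h libraries. After the filter on low counts, 9 of the 39 could be tested in muscle, 27 in fat at 1 h and 38 in fat at 6 h. The one gene not tested at 6 h was Bub1, a spindle checkpoint kinase, with 50 counts.

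Tissue labels matched their markers, since 5 muscle fibre transcripts summed to between 30662 and 55311 CPM in quadriceps and at most 120.3 CPM in fat. The 5 adipocyte transcripts summed to at least 8139 CPM in each fat library and at most 1136 CPM in quadriceps. Several 1 h libraries held transcripts of other organs. Liver, germ cell or epididymis markers summed to over 100 CPM in 6 WT and 3 TG libraries of that set, up to 6894 CPM of liver transcripts in TG replicate 3 and 1871 CPM of germ cell transcripts in WT replicate 9. Outside it, 1 quadriceps WT library and 1 TG library at 6 h passed the same mark. Genes of the list are expressed in germ cells and other dividing tissue, so counts without these libraries are given beside those of each set. The muscle fibre markers also moved with genotype in fat at 6 h, from 22.2 to 50.4 CPM in WT and from 61.1 to 120.3 CPM in TG, with 2 of the 5 tested and 1 called, higher in TG. Their part in the results was not tested.

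In fat at 6 h, the question was which of these genes differed once many transcripts did. Ccnd1, the D-type cyclin that growth factors induce, fell in TG to about 0.517 times its WT level. Ccne2, which encodes a cyclin E, rose 1.75-fold. The 36 other tested genes, from the MCM helicase to the mitotic kinases, did not pass the threshold. Calls are edgeR quasi-likelihood tests with Benjamini-Hochberg adjustment over all genes tested, at an adjusted p under 0.05. With 1 gene higher and 1 lower, 2 of 38 were called, where 14.4% of all 14359 genes tested were (6.88% higher and 7.54% lower), so the count is no result about the list. At an unadjusted p under 0.05 there were 6 higher and 2 lower, where 26.6% of all genes passed (12.9% higher and 13.7% lower). Without the TG library that held other organs' transcripts 2 genes were called and 29 lay above 0, with a median of 0.45. Of all 14539 genes then tested, 889 were called higher and 971 lower.

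Ccnd1 (chromosome 7, 144929931 to 144939925, minus strand, GRCm38 with GENCODE vM21) had a lowest, median and highest level of 46.2, 48.5 and 75.3 CPM in WT and 18.7, 27.5 and 34.9 CPM in TG. Each TG library lay below each WT library, and WT replicate 1 was far above the other 5 WT libraries. Group levels were 52.6 ± 11.1 and 27.2 ± 5.98 CPM (SD, n = 6 each). The log2 difference was -0.95 (SE 0.15, adjusted p = 6.85e-04 by edgeR). Of the 38 tested genes this was the single one whose groups did not overlap, against 7.66% of all genes tested. Leaving out each library in turn gave log2 differences from -1.04 to -0.82. Ccnd1 shares exon bases on the opposite strand with LTO1, whose own log2 difference was 0.14 (adjusted p = 0.460 by edgeR), and no strand setting of the counting is known, so reads of the pair may not be told apart.

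The other D-type cyclins, which act on the same kinases, showed no such difference. Ccnd2 had 1144, 1266 and 1371 CPM (lowest, median, highest) in WT and 1145, 1174 and 1472 CPM in TG. Its log2 difference was -0.05, with a 95% interval from -0.21 to 0.11. Ccnd3 ran from 152 to 174 CPM in WT (median 162) and from 147 to 171 CPM in TG (median 161). Its difference was -0.03, with an interval from -0.15 to 0.09. Both intervals leave out a fall of the size seen for Ccnd1.

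**Figure D1:**
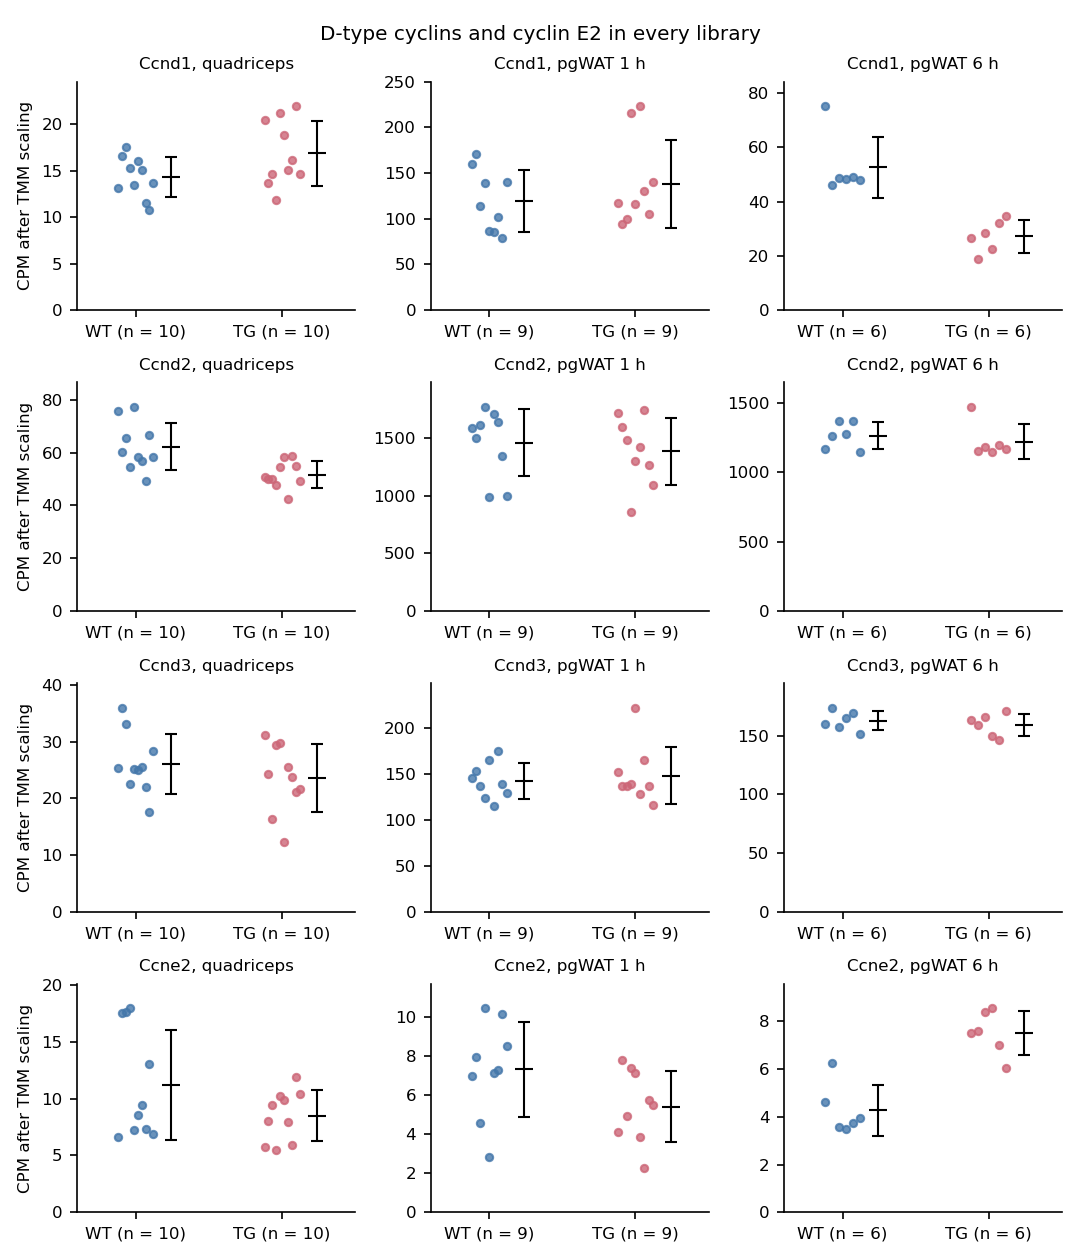
Levels of Ccnd1, Ccnd2, Ccnd3 and Ccne2 in every library, in CPM after TMM scaling on axes from 0, by set (columns) and genotype; each point is 1 library and the black bars are the mean ± SD. Ccnd1 at 6 h is the panel in which the groups separate fully, with WT from 46.2 to 75.3 and TG from 18.7 to 34.9 CPM.

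Among the genes of the G1 to S switch, Ccne2 (chromosome 4, 11191351 to 11204779, plus strand) had 3.48, 3.83 and 6.25 CPM in WT and 6.05, 7.54 and 8.53 CPM in TG. The groups overlapped through a single pair, WT replicate 2 and TG replicate 6. Its levels were 4.26 ± 1.05 and 7.50 ± 0.912 CPM (SD, n = 6 each), a log2 difference of 0.81 (SE 0.17, adjusted p = 0.00333 by edgeR), and all 6 TG libraries lay above the WT mean. Leaving out single libraries gave between 0.76 and 0.95. Ints8, which shares exon bases with Ccne2 on the opposite strand, had a log2 difference of 0.04.

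Ccne1, the paralogue of Ccne2, had a difference of 0.07 (95% interval -0.36 to 0.50). E2f1, the factor that opens S phase, had -0.26. Cdc6, which loads the MCM helicase on origins, had -0.96 (SE 0.35, adjusted p = 0.0787 by edgeR), from 2.50 ± 0.879 CPM in WT to 1.27 ± 0.660 CPM in TG. DESeq2 called Cdc6, which is named here after its value was seen, together with Mcm7 and Tpx2. Mcm7 shares exon bases on the opposite strand with Ap4m1, itself called higher (0.30, adjusted p = 0.0358 by edgeR). Gins2 shares them with Gse1 (-0.86, adjusted p = 5.39e-05 by edgeR) and Ube2c with the muscle gene Tnnc2 (0.79, adjusted p = 0.123). Exosc9, Bysl, Elovl1 and Cops6, which overlap Ccna2, Ccnd3, Cdc20 and Mcm7 in this way, were not called.

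Of the 8 helicase and fork genes, 6 lay above 0 and 2 below, from -0.22 (Mcm4) to 0.26 (Mcm7). Pcna, the sliding clamp of the DNA polymerases, had 17.4, 19.04 and 21.4 CPM in WT and 16.9, 18.3 and 31.6 CPM in TG, a log2 difference of 0.09 (95% interval -0.20 to 0.38). TG replicate 1 was the highest of the TG libraries for Pcna, and the other 5 lay within or just below the WT range. In the deoxynucleotide group, Rrm2, the inducible subunit of ribonucleotide reductase, had the widest spread, with 0.829 to 2.21 CPM in WT and 0.885 to 9.42 CPM in TG and a difference of 1.22 (SE 0.52). Rrm1, Tyms and Tk1 had 0.20, -0.18 and 0.33, and the chromatin genes Asf1b, Hells and Uhrf1 had 0.31, -0.15 and 0.47. TG replicate 1 decided several of these values, and without it Rrm2 had 0.69, Rrm1 0.04, Tk1 -0.55 and Asf1b -0.13.

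All 7 mitotic kinase and cyclin genes and all 7 tested spindle, checkpoint and APC/C genes lay above 0, with medians of 0.47 and 0.59, and none was called. Without TG replicate 1 the medians were 0.19 and 0.41, with 6 of the 7 kinase and cyclin genes above 0, all but Ccnb2 (-0.09), and all 7 of the spindle group. Tpx2, an activator of Aurora A, had 1.05 (SE 0.39, adjusted p = 0.0894 by edgeR), and 0.58 without that library. Mki67, the proliferation marker Ki-67, had 1.83, 4.80 and 6.30 CPM in WT and 3.46, 4.77 and 15.7 CPM in TG, a difference of 0.60 (95% interval -0.21 to 1.40). Top2a, the topoisomerase that untangles sister chromatids, had 5.91, 11.7 and 13.4 CPM in WT and 7.67, 9.86 and 39.1 CPM in TG, a difference of 0.51 (interval -0.38 to 1.40). For both genes the TG median lay below the WT median although the fitted difference was above 0.

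The same library, TG replicate 1, gave the highest value for Mki67, Top2a, Pcna and Rrm2. Summed over the 17 mitotic genes and proliferation markers, it reached 160.9 CPM, while the other TG libraries ran from 52.2 to 84.8 CPM and the WT libraries from 32.3 to 66.6 CPM. The 5 macrophage markers (Adgre1, Cd68, Csf1r, Mrc1 and Lyz2) summed to 1440 CPM in that library and to between 694 and 1092 CPM in the other 11, and none of the 5 was at 0. The 6 T cell markers summed to between 8.14 and 20.8 CPM in WT and between 4.26 and 11.4 CPM in TG, and the 3 tested had a median log2 difference of -0.58. The 5 B cell markers summed to between 383 and 931 CPM in WT and between 540 and 809 CPM in TG, and the 2 tested had a median of -0.62. None of these macrophage, T cell and B cell genes was called or at 0 over the set. Of the endothelial, mesothelial and adipocyte markers, 5 each and all tested, 1 of each was called, where 14.4% of all genes tested were. The endothelial and mesothelial ones were lower in TG (list medians 0.06 and -0.16) and the adipocyte one was higher (list median -0.01). None of the 5 fibroblast and preadipocyte markers was called (median -0.01). The part of all these markers in the result was not tested. Over all 38 tested genes, 29 lay above 0 and 9 below, where 49.8% of all genes were below, and the median log2 difference was 0.32 against 0.00 for all genes tested. Without TG replicate 1 there were 22 above 0 with a median of 0.07, and Mki67, Top2a and Pcna had 0.17, -0.02 and -0.07. At an unadjusted p under 0.05, where 3882 of all 14553 genes then passed, 2 were higher and 4 lower, against 6 and 2 with that library. Ccnd1 and Ccne2 kept their calls without it, at -0.94 (adjusted p = 0.00225 by edgeR) and 0.81 (adjusted p = 0.00566).

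**Figure D2:**
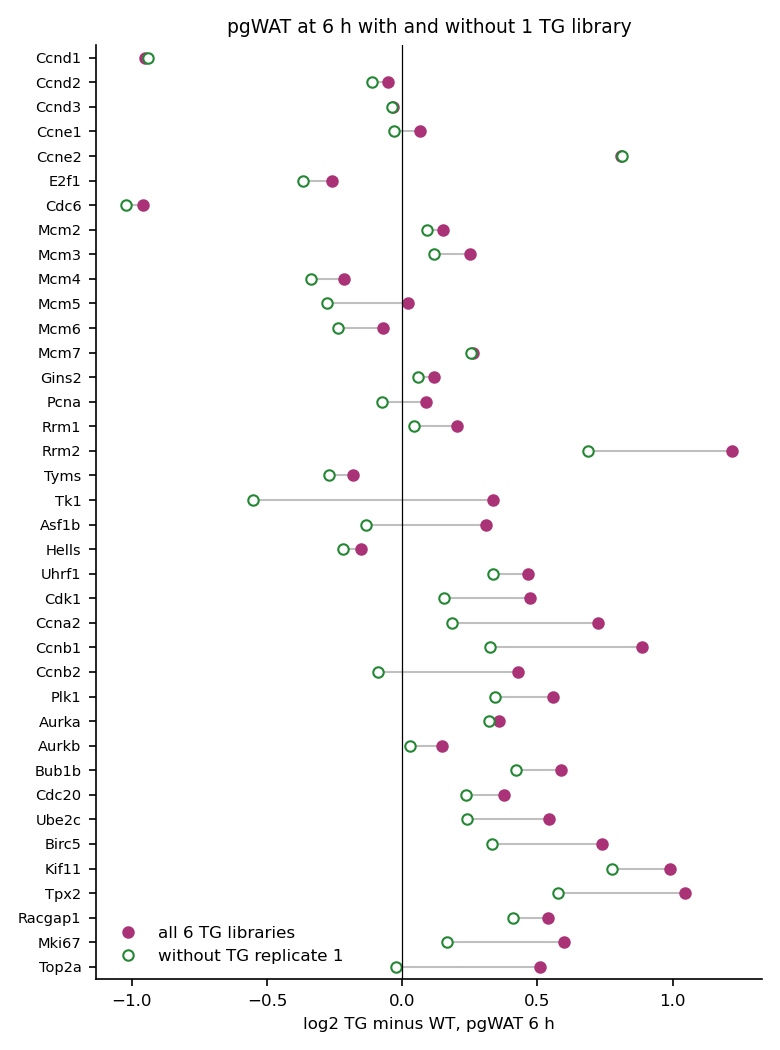
Log2 difference TG minus WT in pgWAT at 6 h for the 38 tested genes, from all 6 TG libraries (filled points) and without TG replicate 1 (open points), joined by a line for each gene. Ccnd1 and Ccne2 stay in place at about -0.95 and 0.81, while Top2a moves from 0.51 to -0.02.

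In fat at 1 h, none of the 27 tested genes was called by edgeR, and 8 of 11087 genes (0.0722%) were called in all. There were 22 of 27 below 0, where 47.3% of all genes tested were, and the median log2 difference was -0.37 against 0.01 for all genes. At an unadjusted p under 0.05 there were 11 genes, all lower in TG, where 4.62% of all genes passed in either direction and 2.2% lower. DESeq2 called 2, Asf1b and Ccna2, both lower. These genes are measured in the same cells and libraries, so they are not 27 separate observations.

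By role, the median was -0.96 over the 3 tested mitotic kinase and cyclin genes, -0.69 over 2 chromatin genes, -0.69 over Mki67 and Top2a, and -0.52 over 4 spindle genes. Ranked by p, and so named after their values were seen, the first were Asf1b, a histone chaperone of new chromatin, Ccna2, the cyclin of S phase and mitotic entry, and Plk1, a kinase of mitotic entry and spindle assembly. Asf1b had 6.09, 11.9 and 18.8 CPM in WT and 4.11, 6.32 and 8.05 CPM in TG, and 8 of 9 WT libraries lay above the highest TG library. Its log2 difference was -1.01 (SE 0.21, adjusted p = 0.0668 by edgeR). Ccna2 had 7.45, 11.1 and 22.3 CPM in WT and 4.48, 6.90 and 9.40 CPM in TG, a difference of -0.96 (SE 0.21, adjusted p = 0.0956 by edgeR). Plk1 had -1.04 (SE 0.26) and Cdk1, the main mitotic kinase, -0.78 (SE 0.24), with adjusted p-values of 0.265 and 0.701 by edgeR.

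Top2a had 20.3, 76.2 and 117 CPM in WT and 25.7, 41.1 and 52.1 CPM in TG. Of its WT libraries 7 lay above every TG library, and 1, replicate 8, lay below them all. Its difference was -0.82 (95% interval -1.30 to -0.34, adjusted p = 0.612 by edgeR). Mki67 had 6.09, 17.9 and 41.1 CPM in WT and 8.62, 13.1 and 16.0 CPM in TG, a difference of -0.57 (interval -1.08 to -0.05). All 9 TG libraries lay below the WT mean for both genes, but the WT libraries were spread over a far wider range than the TG libraries.

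The 8 helicase and fork genes had a median of -0.18, with 5 below 0. Pcna had 43.9, 55.8 and 70.8 CPM in WT and 35.1, 47.8 and 58.1 CPM in TG, a difference of -0.25 (95% interval -0.48 to -0.03). Among the nucleotide genes Rrm2 had -0.56, Rrm1 -0.05 and Tyms -0.08. In the G1 to S group, E2f1 had -0.46 and Ccne2 -0.45.

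D-type cyclins were near 0 as a group. Ccnd1 had 79.2, 114 and 171 CPM in WT and 94.0, 117 and 223 CPM in TG, a difference of 0.21 (interval -0.19 to 0.61). Its highest TG libraries, replicates 4 and 6, were also the TG libraries with the most epididymis and duct transcripts (317.6 and 275.0 CPM, at most 43.9 CPM in the other 7). The epididymis list had 5 markers, of which 2 were tested and none called, and none was at 0 over the set. Without the 6 WT and 3 TG libraries that held transcripts of liver, germ cells or epididymis, the Ccnd1 difference was -0.23, with 3 WT and 6 TG libraries left. The part of any of these transcripts in the Ccnd1 level was not tested. Ccnd2 ran from 986 to 1770.1 CPM in WT (median 1584) and from 856 to 1738 CPM in TG (median 1423), and its difference was -0.08 (interval -0.37 to 0.21). Ccnd3 had 115, 139 and 175 CPM in WT and 117, 137 and 223 CPM in TG, a difference of 0.05 (interval -0.18 to 0.28).

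**Figure D3:**
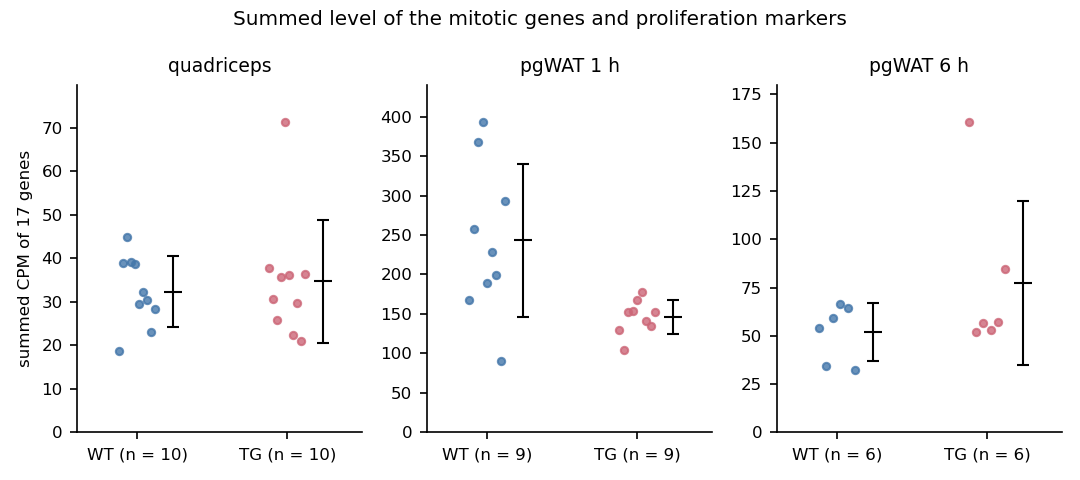
Summed CPM of the 17 mitotic genes and proliferation markers in every library, by set and genotype, on axes from 0; points are libraries and black bars the mean ± SD. At 1 h the WT libraries spread from 90.7 to 393.4 CPM and the TG libraries from 104.1 to 178.1 CPM, and at 6 h TG replicate 1 stands alone at 160.9 CPM.

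Summed over the 17 mitotic genes and markers, the 1 h WT libraries ran from 90.7 to 393.4 CPM (median 228.5) and the TG libraries from 104.1 to 178.1 CPM (median 152.1). WT replicate 8, at 90.7 CPM, was the lowest of all 18. Without it edgeR called 3 genes, all lower in TG, namely Asf1b, Ccna2 and Top2a. Of all 11258 genes then tested, 6 were called higher and 6 lower. Without the 9 libraries that held transcripts of other organs, 3 WT and 6 TG libraries were left. Then 25 of 27 genes lay below 0, 12 of them at an unadjusted p under 0.05, and none was called. Of all 10909 genes in that fit, 384 passed at that p in either direction and 1 was called, lower. Macrophage markers summed to between 478 and 1251 CPM in WT and between 578 and 1560 CPM in TG at 1 h, with a median log2 difference of -0.07. The 5 mesothelial markers summed to between 18.1 and 201 CPM in WT and between 40.2 and 367 CPM in TG, with a median of 0.84. The 5 fibroblast and preadipocyte markers summed to between 1640 and 3232 CPM in WT and between 1582 and 4813 CPM in TG, with a median of 0.30. All 15 of these genes were tested, none was called and none was at 0 over the set. Their part in the result was not tested.

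**Figure D4:**
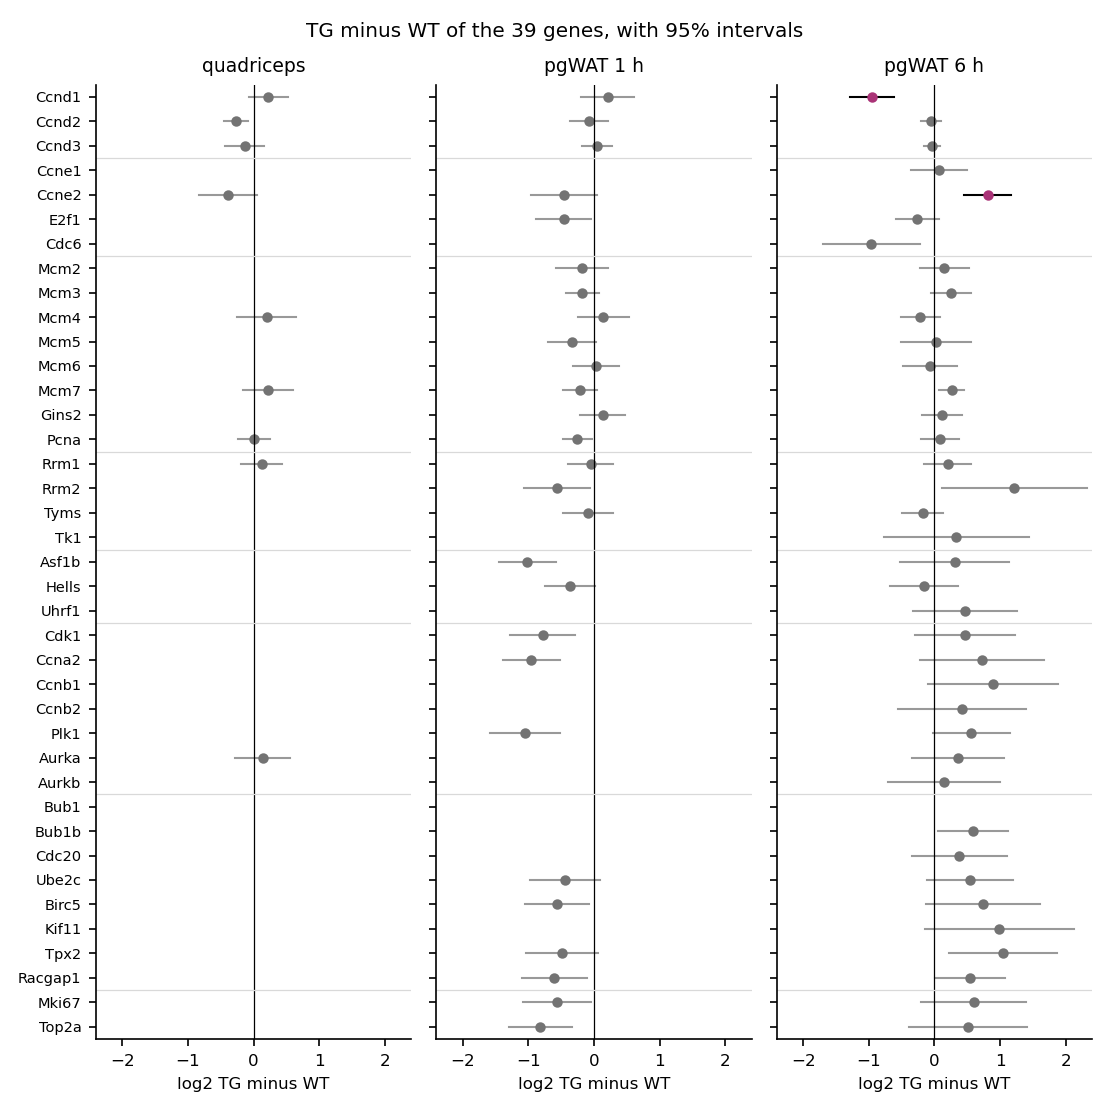
Log2 difference TG minus WT with its 95% interval for each tested gene in the 3 sets, grouped by role with thin lines between the groups; genes without a point were not tested, and coloured points are called. The 2 called genes are Ccnd1 (-0.95) and Ccne2 (0.81) at 6 h, and 22 of 27 points lie below 0 at 1 h.

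In quadriceps, where the question was the same for a tissue with few dividing cells, none of the 9 tested genes was called (2.03% of all 8070 genes were), and DESeq2 called none either. None of 9 was called without the WT library that held other organs' transcripts (74 higher and 66 lower of all 8168 genes). One gene passed at an unadjusted p under 0.05 (11.7% of all genes did). This was Ccnd2, with 49.4, 59.4 and 77.4 CPM in WT and 42.2, 50.5 and 58.7 CPM in TG, a log2 difference of -0.27 (95% interval -0.45 to -0.08, adjusted p = 0.157 by edgeR), and all 10 TG libraries lay below the WT mean. Ccnd1 had 10.7, 14.4 and 17.6 CPM in WT and 11.9, 15.7 and 21.99 CPM in TG, a difference of 0.22 (interval -0.07 to 0.52). Ccnd3 had 17.6, 25.2 and 36.0 CPM in WT and 12.3, 24.02 and 31.2 CPM in TG, a difference of -0.14 (interval -0.43 to 0.16).

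The other tested genes in muscle were Ccne2, Mcm4, Mcm7, Pcna, Rrm1 and Aurka. Pcna had 18.9, 27.8 and 32.6 CPM in WT and 20.5, 26.5 and 37.1 CPM in TG, and its difference of 0.01 had an interval from -0.24 to 0.25. Ccne2 had -0.39 and the other 4 lay between 0.12 and 0.23. The groups overlapped for all 9 genes, and 0.297% of all genes tested had groups that did not overlap.

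The 30 genes not tested in quadriceps had between 1 and 207 counts over 20 libraries. Mki67 had 15 counts in 9 libraries and Top2a 58 counts in 17, and neither was tested. One library stood apart, TG replicate 5, with 13.6 CPM of Top2a where the other 19 libraries had at most 4.92 CPM. Its sum over the 17 mitotic genes and markers was 71.4 CPM, against 18.7 to 44.9 CPM in the other libraries.

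Whether the genotype difference in fat itself differed between the times was tested as an interaction, over 36 genes of the list. By edgeR 5 were called (4.21% of 13022 genes were, 1.87% higher and 2.33% lower). Ccnd1 had a lower difference at 6 h than at 1 h (log2 -1.16, SE 0.28, adjusted p = 0.0112). Plk1 (1.61, SE 0.39, adjusted p = 0.0122), Ccne2 (1.27, SE 0.31, adjusted p = 0.0136), Ccna2 (1.68, SE 0.47, adjusted p = 0.0292) and Rrm2 (1.77, SE 0.53, adjusted p = 0.0487) were higher. At an unadjusted p under 0.05 there were 19 higher and 1 lower, where 15.2% of all genes passed (7.19% higher and 8.05% lower). Of the 36 genes 7 lay below 0, where 49.6% of all genes did, and the median was 0.87 against 0.00 for all genes. Without TG replicate 1 of the 6 h set 37 genes were tested, 14 were higher and 2 lower at an unadjusted p under 0.05, and the median was 0.47. Of all 13029 genes in that fit, 1859 passed at that p in either direction.

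By role, the mitotic groups and the proliferation markers had the highest medians. All 7 mitotic kinase and cyclin genes were above 0, with a median of 1.54, and so were the 7 spindle genes (median 1.30), Mki67 (1.17) and Top2a (1.33). Without TG replicate 1 of the 6 h set all genes of both groups stayed above 0, the spindle median was 1.03, and Mki67 and Top2a had 0.74 and 0.80. The 8 helicase and fork genes had a median of 0.34, with Pcna at 0.34 (95% interval -0.01 to 0.70). Ccnd2 (0.03, interval -0.36 to 0.41) and Ccnd3 (-0.08, interval -0.37 to 0.21) did not differ beyond their spread. Library kit and sequencing run coincide with time in these sets, so time and kit cannot be told apart.

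Single libraries decided part of these calls. Without WT replicate 8 of the 1 h set 8 genes were called, where 256 of all 13071 genes were higher and 311 lower. Without TG replicate 1 or WT replicate 1, 2 or 6 of the 6 h set 3 were called (Ccnd1, Ccne2 and Plk1). Among all 13029 to 13041 genes, 189 to 220 were then called higher and 250 to 276 lower. Over the 30 fits that left out 1 library, Ccnd1, Ccne2 and Plk1 were called in each, Ccna2 lost its call in 4 and Rrm2 in 22. Without the libraries that held transcripts of other organs 2 were called, Plk1 and Ccna2, while Ccnd1 had -0.64 (adjusted p = 0.128 by edgeR) and Ccne2 1.24 (adjusted p = 0.117). Of all 16318 genes in that fit, 135 were called higher and 184 lower.

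**Figure D5:**
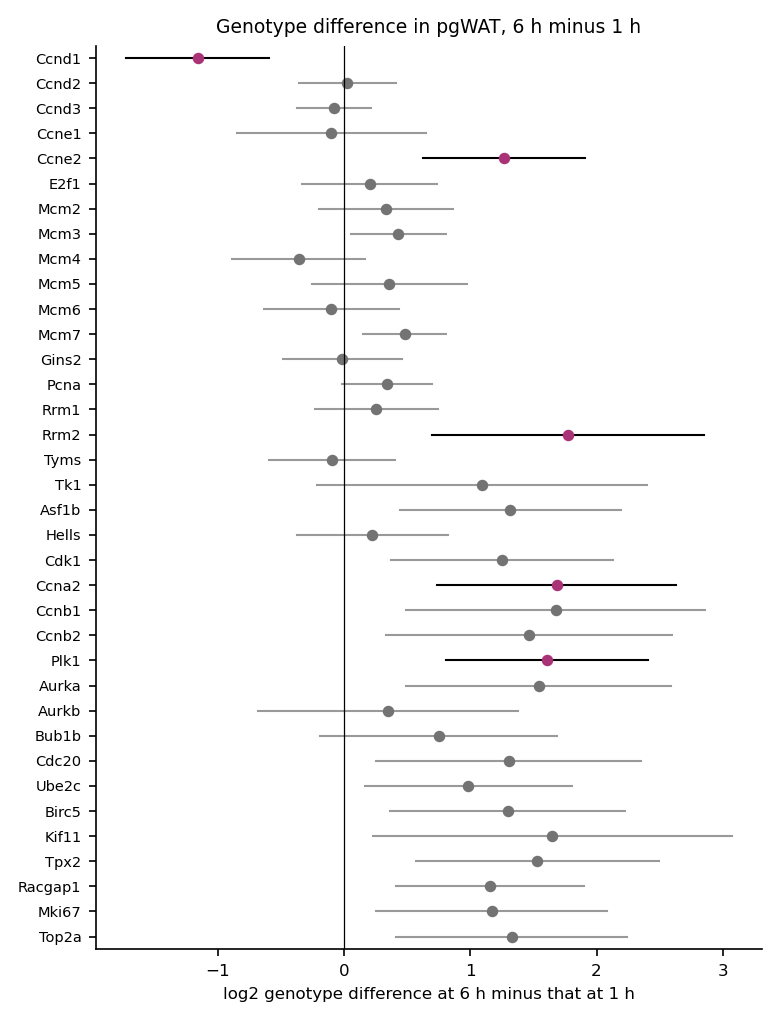
Genotype difference (log2 TG minus WT) in pgWAT at 6 h minus that at 1 h, with 95% intervals, for the 36 genes tested; coloured points are called. Ccnd1 (-1.16) is the called gene on the left, and Plk1, Ccne2, Ccna2 and Rrm2 (1.27 to 1.77) are those on the right.

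A wider list of 118 further cell cycle genes, of inhibitors, E2F and DREAM partners, licensing factors and mitotic machinery, was read beside the 39. In quadriceps 40 were tested and 1 was called, where 2.03% of all genes were. That was Cdkn1a, the CDK inhibitor p21, which rose from 86.2 ± 26.9 to 150 ± 30.5 CPM (SD, n = 10 each), a log2 difference of 0.80 (adjusted p = 0.00558 by edgeR). At 1 h 81 were tested, none was called by edgeR and 1 by DESeq2, and 12 passed at an unadjusted p under 0.05, all lower, where 4.62% of all genes passed and 2.2% lower. All 13 tested kinetochore, spindle, condensin and cytokinesis genes were below 0 at 1 h, with a median of -0.59.

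At 6 h 105 of the wider list were tested, and 6 rose and 4 fell, where 6.88% of all genes were higher and 7.54% lower. Over the alternatives the count of 10 ran from 6, without TG replicate 6, to 14 with DESeq2. Cdkn1a had 31.8, 82.1 and 114 CPM in WT and 261, 283 and 421 CPM in TG, a log2 difference of 2.07 (SE 0.33, adjusted p = 0.00159 by edgeR), and the groups did not overlap. Wee1, the kinase that holds CDK1 inactive, rose by 0.99, Myc by 0.96, the MuvB subunit gene Lin52 by 0.47, the E2F partner Tfdp2 by 0.36 and the condensin gene Smc4 by 0.31. Cdc25b, the phosphatase that activates CDK1, changed by -0.74, from 16.95 ± 2.81 to 10.2 ± 1.99 CPM, with no overlap between the groups. Cdkn1a and Cdc25b were the 2 of 105 genes whose groups did not overlap, against 7.66% of all genes tested. Fzr1, an activator of the APC/C, had -0.33, the CDK inhibitor gene Cdkn2d -0.30 and the clamp loader gene Rfc1 -0.20. Adjusted p-values of these genes lay between 0.00159 and 0.0417. Cdkn1a had 0.04 at 1 h, and in the interaction Cdkn1a (2.03), Hmmr (1.96), Kif15 (1.64), Cdca8 (1.38) and Dbf4 (1.00) were called, 5 of 101 tested and all higher, where 4.21% of all genes were called and 1.87% higher. That count ran from 1, without TG replicate 1 of the 6 h set or without the filter on low counts, to 9 with DESeq2 or without WT replicate 8 of the 1 h set.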

How the data were processed

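The authors deposited 3 tables of raw counts per gene, as whole numbers that are not normalized, for quadriceps, pgWAT at 1 h and pgWAT at 6 h. STAR 2.7.10, cutadapt 1.18, UMI-tools 1.1.2 and bcl2fastq 2.20.0.422 are named in the submitters' processing notes, as are GRCm38 and GRCm39, without roles. Not given in the sources used here are the counting program, its strand setting, the build of each table and any collapse of molecular identifiers. Per the labels' protocols, molecular identifiers were added in the quadriceps and 1 h libraries, and a standard kit without them made those of 6 h. Uncollapsed copies would make counts look more precise than the molecules behind them.

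Rows that name no gene (a mean of 25.1%, 34.7% and 0.214% of counts) were left out. Symbols came from the 6 h table, joined to the others by gene identifier. Groups follow the titles, also for quadriceps TG replicate 10, whose treatment entry names 1 h instead of a clamp. TG was tested against WT within each set by edgeR 4.0.16 under R 4.3.3 (filterByExpr by genotype, TMM, robust quasi-likelihood F test, Benjamini-Hochberg over 8070, 11087 and 14359 genes), and set by genotype in 1 fit over 13022 genes. SE is the log2 difference divided by the square root of F. The scripts were tested on simulated counts. Alternatives were DESeq2 1.42.0, its size factors, no filter, the replicate number as a block and leaving out libraries. The library number modulo 8 was a factor in a further one, for quadriceps and 1 h only. Leaving out libraries with over 100 CPM (before TMM scaling) of other organs' markers, and single libraries in the interaction, was chosen after seeing the data.

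The members and lists were chosen with earlier results of these data known. Values were given for members called in a set and for Mki67, Top2a, Pcna, Ccnd1, Ccnd2 and Ccnd3, and for called genes of the wider list (at most 6 per direction). Promoters were to be those of members called in a set. Other names were added after their values were seen. Positions are GENCODE vM21 on GRCm38.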

Additional observations from a re-analysis of the deposited data

Results flagged for a closer look

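Single libraries lay far from the rest of their group, by the gap to the nearest library as a share of the group's range, in 5 of 34 groups checked, where chance gives about 1 in 20. In pgWAT at 6 h TG replicate 1 was the highest of 6 for Ccnd2 (1472 CPM), Pcna (31.6 CPM) and Top2a (39.1 CPM), and these values come from 1 library. Ccnd1 was highest in WT replicate 1 of that set (75.3 CPM), and Ccnd3 in TG replicate 5 of the 1 h set (222.6 CPM).

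The genotype difference in fat differed between the 6 h and 1 h sets, by the test of the interaction in edgeR, for 5 genes. As log2 of the 6 h difference minus that at 1 h, these were Ccnd1 (-1.16), Ccne2 (1.27), Plk1 (1.61), Ccna2 (1.68) and Rrm2 (1.77). Leaving out single libraries, Rrm2 lost its call in 22 of 30 fits and Ccna2 in 4. Without the libraries that held other organs' transcripts, Plk1 and Ccna2 alone were called. Time and library kit cannot be told apart here.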

How the results depend on the processing

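No direction of a called gene reversed under any alternative run. With DESeq2 the counts of called genes of the list were 2 at 1 h, 5 at 6 h and 10 in the interaction, against 0, 2 and 5 with edgeR, where DESeq2 called 19 of 11087, 2435 of 14344 and 792 of 12974 genes in all. Leaving out single libraries gave 0 in quadriceps, 0 to 3 at 1 h, 2 to 3 at 6 h and 3 to 8 in the interaction. Without the libraries that held other organs' transcripts the interaction had 2, where 135 of all 16318 genes were called higher and 184 lower. Rrm2 lost its interaction call without the filter on low counts (adjusted p = 0.0769 by edgeR). With the remainder of the library number as a factor, 6 genes at 1 h passed at an unadjusted p under 0.05, against 11. Of all 11087 genes, 394 then passed, against 512. Remainder 4 held TG replicates 7 and 9 and no WT library, so this factor was not balanced over genotype. The cause of these changes was not tested.

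Deviations of same-numbered libraries correlated from -0.18 to 0.20 in quadriceps, from -0.18 to 0.37 at 1 h and from -0.09 to 0.11 at 6 h. Differently numbered libraries were not compared, so these values cannot show whether the replicate number pairs the samples. With the number as a block the counts were 0, 0, 2 and 4 in the interaction, where Ccna2 had an adjusted p of 0.0631 by edgeR. Over all genes, the block fits called 79 higher and 65 lower in quadriceps, and 3 and 2 at 1 h. At 6 h they called 869 and 1005, and in the interaction 238 and 319. In quadriceps, where counts were low, all 39 genes were fitted without the filter and none was called. At an unadjusted p under 0.05, 4 passed, 2 higher and 2 lower. Of all 21711 genes fitted, 2047 passed at that p, so this count is no result about the list.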
